A study of Rattus norvegicus with 6 samples.

Results

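The miR-7 family and miR-671 were examined in small RNA sequencing of the rat peri-infarct cortex after stroke. The members were the rows of the count table whose names begin with miR-7a or miR-7b, or that are named miR-671 with or without an arm. These were 5 of the 493 mature miRNAs in the table, namely rno-miR-7a-5p, rno-miR-7b, rno-miR-7a-1-3p, rno-miR-7a-2-3p, and rno-miR-671, written below without the prefix for rat. Male Sprague-Dawley rats underwent occlusion of the right middle cerebral artery (MCAO) for 90 min followed by reperfusion, in both groups. The MCAO group (n = 3) received nothing further, and its cortex was taken at 7 days. The MCAO + rTMS group (n = 3) then received repetitive transcranial magnetic stimulation (rTMS), a train of magnetic pulses given through a coil above the injured side of the brain, at 10 Hz on 7 consecutive days. The labels give sessions of 10 min a day, while the study's methods describe short trains of pulses separated by longer rests and begun the day after reperfusion. The labels of the MCAO + rTMS rats give the days of stimulation and not the day of collection, which the study's supplement places at 7 days after modeling for this comparison. They name no sham stimulation for the MCAO rats, and no library of a rat without occlusion was analysed here.

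miR-7 is an old and strongly conserved miRNA that is abundant in neurons and in hormone-secreting cells. In the brain it is held by the circular RNA Cdr1as, which carries many miR-7 sites and is found mainly in neurons. A nearly perfect site in Cdr1as for the 5p arm of miR-671 allows Argonaute 2 to cut the circle, and the long noncoding RNA Cyrano (Oip5-as1) directs miR-7 to decay. The row named miR-671 is the 3p arm of its hairpin, which is not the arm that guides this cut. The 5p arm, Cdr1as, and Cyrano were not analysed here.

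The mature sequences of all 5 members matched RefSeq (GRCr8 tables) by name, and they are shown because they decide which reads can belong to which row. Each is written 5′ to 3′, with the seed (bases 2 to 8, which pair with targets) in capitals.
miR-7a-5p: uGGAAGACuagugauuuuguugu
miR-7b: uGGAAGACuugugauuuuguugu
miR-7a-1-3p: aCAACAAAucacagucugccau
miR-7a-2-3p: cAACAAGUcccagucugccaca
miR-671: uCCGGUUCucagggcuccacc
miR-7a-5p and miR-7b share the seed GGAAGAC, and no other mature rat miRNA in the RefSeq table carried it. They differed by 1 of 23 bases, A10U, where the first letter is the base in miR-7a-5p and position 1 is the 5′ end. A read with an error at that base, or one that ends before it, cannot be assigned between them, and the counting rule for such reads is not given in the sources used here. miR-7a-1-3p and miR-7a-2-3p had different seeds and shared a run of 10 bases, CAGUCUGCCA, at positions 12 to 21 of the former and 11 to 20 of the latter. The seed of miR-7a-1-3p was also that of miR-3065-5p, while those of miR-7a-2-3p and miR-671 occurred in no other mature sequence of the table.

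The hairpins show which rows come from which gene, with the mature arms that RefSeq annotates in capitals.
mir-7a-1: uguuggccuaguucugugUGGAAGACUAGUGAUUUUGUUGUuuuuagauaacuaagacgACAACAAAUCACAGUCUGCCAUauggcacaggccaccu
mir-7a-2: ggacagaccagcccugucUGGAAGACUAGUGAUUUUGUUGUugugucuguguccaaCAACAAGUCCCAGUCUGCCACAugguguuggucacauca
mir-7b: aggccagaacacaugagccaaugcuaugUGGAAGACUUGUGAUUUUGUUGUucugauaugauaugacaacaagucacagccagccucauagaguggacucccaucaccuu
mir-671: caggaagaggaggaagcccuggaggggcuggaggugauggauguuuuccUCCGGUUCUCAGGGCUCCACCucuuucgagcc
miR-7a-5p is cut from both mir-7a-1 and mir-7a-2, so its row sums the products of both genes, whereas each 3p row belongs to one of them. In the RefSeq gene table, mir-7a-1 lay inside Hnrnpk, which encodes an RNA-binding protein, and mir-671 lay inside Chpf2, which encodes a chondroitin-polymerizing enzyme. mir-7b lay inside Rpl35l3 and mir-7a-2 inside LOC120099863. The mir-671 hairpin carries its annotated arm on the 3p side only.

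Library totals lay between 10492610 and 15411620 counts. Values are raw counts, or CPM, which are counts scaled by the product of the library total and its TMM factor from edgeR. In order of replicate number, the factors were 1.20, 1.16, and 1.39 in the MCAO libraries. They were 0.863, 0.864, and 0.695 in the MCAO + rTMS libraries. The CPM of a library therefore do not add up to the same sum in every library, and a CPM value is not a share of its counts. edgeR's quasi-likelihood test was run across the 452 miRNAs that passed a filter on low counts, all 5 members among them, and p-values were adjusted over all 452 by the Benjamini-Hochberg method. A miRNA was called at an adjusted p under 0.05. With 3 rats a group, the exact permutation test cannot go below p = 0.1. The log2 fold changes of the 452 miRNAs had a median of -0.21, which shifted to -0.80 when libraries were scaled by their totals only. In these bulk samples, fewer cells of a type and less RNA per cell cannot be told apart.

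Of the 5 members, miR-671 and miR-7a-5p were higher and miR-7a-1-3p was lower in the MCAO + rTMS group. The changes of miR-7b and miR-7a-2-3p did not pass the threshold. Calls are common in this comparison, with 55.3% of the tested miRNAs called in either direction, 27.2% higher and 28.1% lower, so 3 called of 5 is near the share of all miRNAs. The groups did not overlap in CPM for the same 3 members, against 66.8% of the tested miRNAs, in 30.8% of which the MCAO + rTMS rats were all above and in 36.1% all below.

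**Figure D1:**
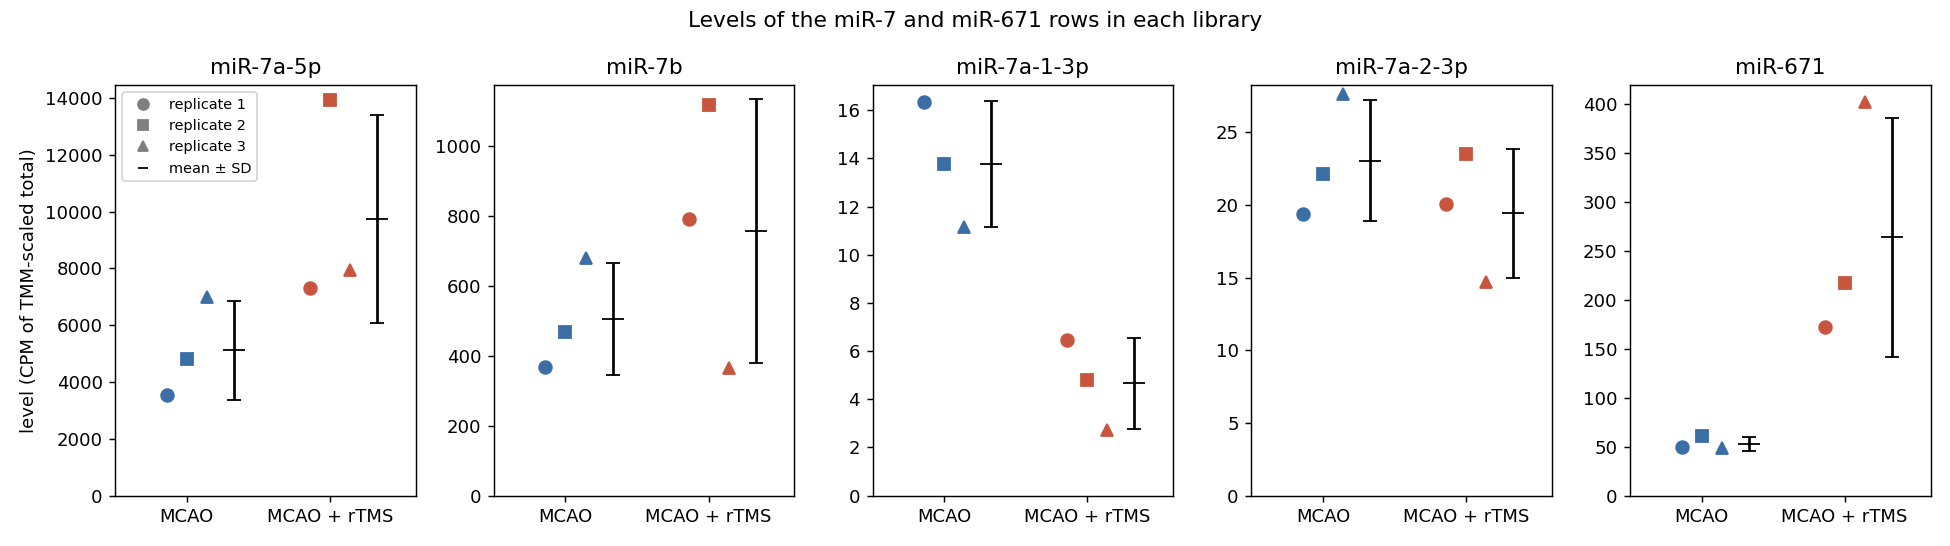
Level of each member in each library, in CPM of the TMM-scaled total, on linear axes that start at 0. Points are single rats, marked by replicate number, and the black bars give mean ± SD (n = 3); the groups are separate for miR-7a-5p, miR-7a-1-3p, and miR-671, and overlap for miR-7b and miR-7a-2-3p.

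miR-7a-5p, the main miR-7 of the brain and the strand that pairs with Cdr1as, was the most abundant member and ranked 20 of the 493 miRNAs by mean CPM. In order of replicate number, which is kept below, its counts were 55705, 58120, and 111873 among the MCAO rats and 97376, 165219, and 81906 among the MCAO + rTMS rats. Scaled, these were 3547, 4795, and 7007 CPM in the MCAO rats and 7324, 13929, and 7960 CPM in the MCAO + rTMS rats. The lowest MCAO + rTMS rat lay just above the highest MCAO rat, and the rats of a group were themselves spread over a 1.98-fold range in MCAO and a 1.90-fold range in MCAO + rTMS. The means were 5116 ± 1752 and 9738 ± 3644 CPM (SD, n = 3 each). The log2 fold change was 0.93 (standard error 0.34, 95% interval 0.15 to 1.71, adjusted p = 0.048 from the edgeR test). Over all 16 alternative fits the adjusted p ran from 0.016 to 0.55, and the call was lost in 8 of them. The log2 fold change fell to 0.29 with library totals only. As a share of the counts, miR-7a-5p took 0.652% ± 0.288 (SD, n = 3) without and 0.796% ± 0.355 (SD, n = 3) with rTMS, and these shares overlapped.

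miR-7b, which has the same seed, was much less frequent. It was counted 5773, 5664, and 10871 times among the MCAO rats and 10517, 13253, and 3748 times among the MCAO + rTMS rats. In CPM these were 368, 467, and 681 against 791, 1117, and 364. MCAO + rTMS replicates 1 and 2 lay above all MCAO rats, but replicate 3 lay below all of them, so the groups overlapped fully. The log2 fold change was 0.58 (standard error 0.41, 95% interval -0.38 to 1.55, adjusted p = 0.26 from the same edgeR test). Without MCAO + rTMS replicate 3 it was 0.92, with adjusted p = 0.039, and with library totals only it was -0.021, so miR-7b has no settled direction here. Summed over both members with this seed, the level was 3914, 5262, and 7688 CPM in the MCAO rats and 8115, 15047, and 8325 CPM in the MCAO + rTMS rats. As a share of the counts, the sum was 0.469%, 0.608%, and 1.07% in the MCAO rats and 0.700%, 1.30%, and 0.579% in the MCAO + rTMS rats. These shares overlapped, so the separation in CPM depends on the scaling.

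miR-671, the 3p arm of its hairpin, showed the largest change of the members. It was counted 775, 740, and 772 times among the MCAO rats and 2281, 2579, and 4128 times among the MCAO + rTMS rats. The levels were 49.3, 61.1, and 48.4 CPM in the MCAO rats and 172, 217, and 401 CPM in the MCAO + rTMS rats. The MCAO rats were close together, with an SD of 13.4% of their mean, and the MCAO + rTMS rats were spread over a 2.34-fold range, with replicate 3 the highest. The log2 fold change was 2.32 (standard error 0.34, 95% interval 1.53 to 3.10, adjusted p = 0.0016 from the same edgeR test), a fold change of 4.98. It passed the threshold in all 16 alternative fits, from 1.64 with library totals only to 2.55 without MCAO + rTMS replicate 1. Of the 5 members, miR-671 was the one that also stood in the authors' smaller table of 73 selected miRNAs, with the same counts.

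**Figure D2:**
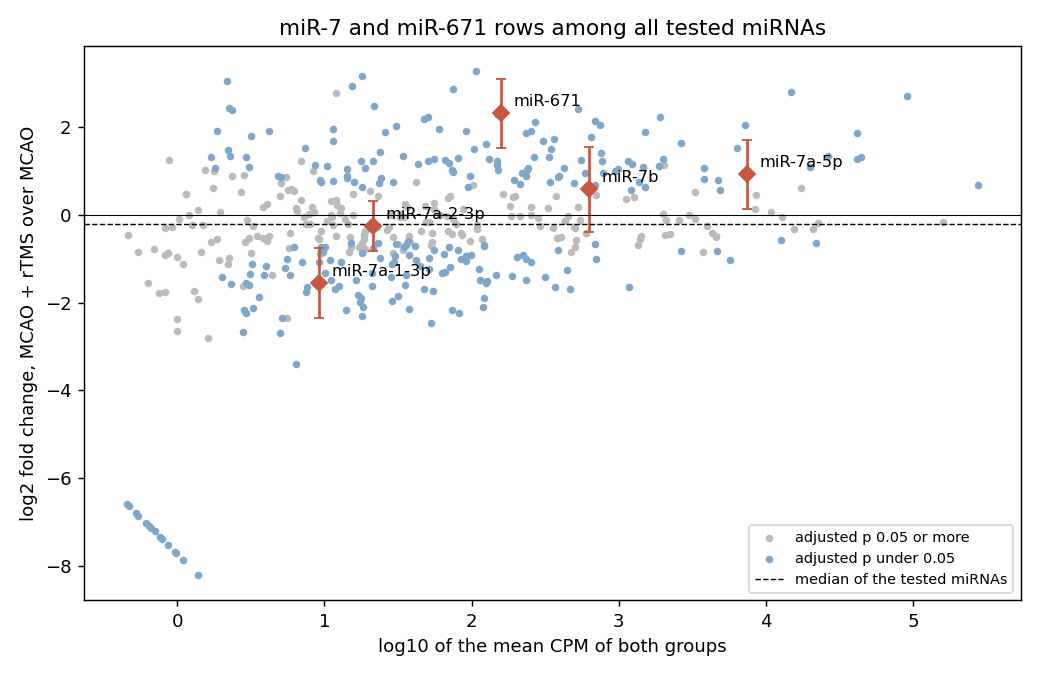
Log2 fold change of each of the 452 tested miRNAs (MCAO + rTMS over MCAO) against the log10 of its mean CPM over both groups. Red diamonds are the 5 members with 95% intervals, and the dashed line is the median of the tested miRNAs, -0.21. The intervals of miR-671 and miR-7a-5p lie above this line, that of miR-7a-1-3p below it, and those of miR-7b and miR-7a-2-3p cross it. The blue points under -6 are the 15 tested miRNAs listed at 0 in all MCAO + rTMS libraries, whose fitted value depends on the prior count.

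The 3p arms of miR-7a, which are mostly discarded when the hairpin is processed, were rare. miR-7a-1-3p, specific to mir-7a-1, was counted 257, 167, and 178 times among the MCAO rats and 86, 57, and 28 times among the MCAO + rTMS rats. These counts were 16.4, 13.8, and 11.1 CPM against 6.47, 4.81, and 2.72 CPM. Every MCAO + rTMS rat lay well below every MCAO rat, in raw counts as in CPM. The log2 fold change was -1.55 (standard error 0.34, 95% interval -2.34 to -0.76, adjusted p = 0.0077 from the same edgeR test). It passed the threshold in each of the 15 alternative fits that kept this miRNA, from -2.13 to -1.25.

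miR-7a-2-3p, specific to mir-7a-2, was counted 305, 268, and 441 times in the MCAO rats and 267, 279, and 151 times in the MCAO + rTMS rats. The levels were 19.4, 22.1, and 27.6 CPM against 20.1, 23.5, and 14.7 CPM, and the groups overlapped. The log2 fold change was -0.25 (standard error 0.24, 95% interval -0.81 to 0.32, adjusted p = 0.41 from the same edgeR test). It stayed below 0 in all 16 alternative fits and passed the threshold in none, and its adjusted p was lowest, at 0.051, with library totals only, where the log2 fold change was -0.87.

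**Figure D3:**
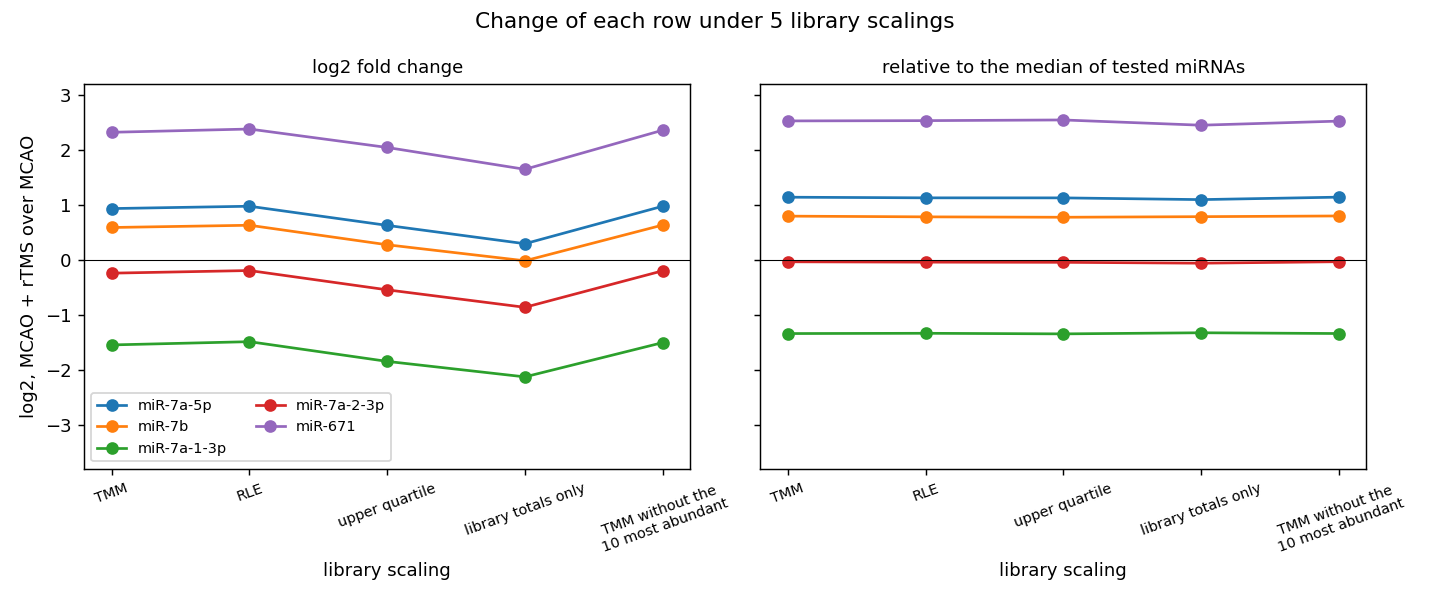
Log2 fold change of each member (left) and the same value relative to the median of the tested miRNAs (right) under 5 ways of scaling the libraries. On the left all 5 lines shift together and miR-7b reaches -0.021 with library totals only; on the right the shared shift is subtracted, which leaves the lines nearly flat by construction, with miR-671 near 2.5 and miR-7a-1-3p near -1.3.

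Another scaling moves the fold changes of all miRNAs by about the same amount, so values relative to their median change little by construction. They place each member among the tested miRNAs. On the log2 scale, miR-7a-5p lay 1.14 above that median with TMM factors and 1.09 above it with library totals only. The same pair of values was 0.79 and 0.78 for miR-7b, 2.52 and 2.44 for miR-671, -0.039 and -0.065 for miR-7a-2-3p, and -1.34 and -1.33 for miR-7a-1-3p.

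Both arms of a hairpin are read in the same library, so their ratio does not depend on the scaling at all. For every 100 reads of miR-7a-5p there were 0.461, 0.287, and 0.159 reads of miR-7a-1-3p in the MCAO rats. With rTMS there were 0.0883, 0.0345, and 0.0342. The groups did not overlap, although the MCAO rats differed widely among themselves. The log2 ratio was -8.50 ± 0.77 (SD, n = 3) without and -11.04 ± 0.78 (SD, n = 3) with rTMS, a difference of -2.54 (standard error 0.53, adjusted p = 0.0072 from limma over 167 arm pairs). For miR-7a-2-3p there were 0.548, 0.461, and 0.394 reads per 100 of miR-7a-5p in the MCAO rats and 0.274, 0.169, and 0.184 in the MCAO + rTMS rats, again without overlap. Its log2 ratio differed by -1.18 (standard error 0.28, adjusted p = 0.011 from limma over the same 167 pairs). Without MCAO replicate 1 the adjusted p was 0.054, and without MCAO + rTMS replicate 2 it was 0.051.

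**Figure D4:**
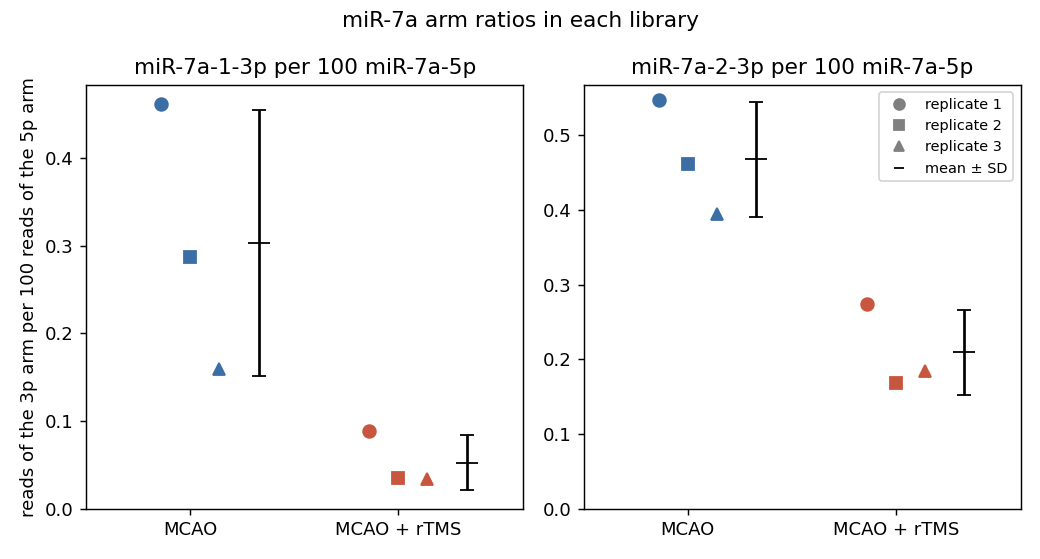
Reads of each miR-7a 3p arm for every 100 reads of miR-7a-5p in the same library, on linear axes that start at 0, with single rats as points and mean ± SD (n = 3) in black. In both panels all 3 MCAO + rTMS rats lie below all 3 MCAO rats; both ratios have the same denominator, which sums the products of mir-7a-1 and mir-7a-2.

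Both ratios share their denominator, so they are not independent of each other. Shifts of arm ratios were common in these libraries in either direction, with 49.1% of the 167 arm pairs called by limma, 26.3% lower and the rest higher. The groups did not overlap in 58.1% of the pairs, in 31.1% with a lower ratio in every MCAO + rTMS rat. The median difference over all pairs was -0.022, and the median of its size was 1.40. Of the 167 pairs, 18 had a difference below that of miR-7a-1-3p and 53 had one below that of miR-7a-2-3p. The ratio of miR-7a-2-3p therefore moved less than the middle pair in size.

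Ratios between members of the same library were compared with exact two-sided permutation tests, 4 in all, of which the last below was added after the counts had been seen. miR-7b was steady against miR-7a-5p in the MCAO group, at 10.4, 9.75, and 9.72 reads per 100 of miR-7a-5p. In the MCAO + rTMS group it was at 10.8, 8.02, and 4.58 reads per 100, with replicate 3 apart from the others. The log2 ratio differed between the groups by -0.44 (exact permutation p = 0.4, adjusted p = 0.4 over the 4 ratios), and its SD was 0.052 among the MCAO rats and 0.63 among those given rTMS. Without MCAO + rTMS replicate 3 this difference was -0.095.

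miR-671 stood at 1.39, 1.27, and 0.690 reads per 100 of miR-7a-5p in the MCAO rats and at 2.34, 1.56, and 5.04 in the MCAO + rTMS rats. The groups did not overlap, but MCAO + rTMS replicate 2 was close to MCAO replicate 1. The difference of the log2 ratio was 1.30 (exact permutation p = 0.1, the smallest this design allows, adjusted p = 0.13), and it was 0.84 without MCAO + rTMS replicate 3. Against miR-7b, the difference was 1.74 (exact permutation p = 0.1, adjusted p = 0.13), and without MCAO + rTMS replicate 3, in which miR-671 exceeded miR-7b at 110 reads per 100, it was 0.93. Between the 3p arms, miR-7a-1-3p was counted 84.3, 62.3, and 40.4 times per 100 reads of miR-7a-2-3p in the MCAO rats and 32.2, 20.4, and 18.5 times in the MCAO + rTMS rats. The groups did not overlap, and the log2 ratio differed by -1.36 (exact permutation p = 0.1, adjusted p = 0.13).

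**Figure D5:**
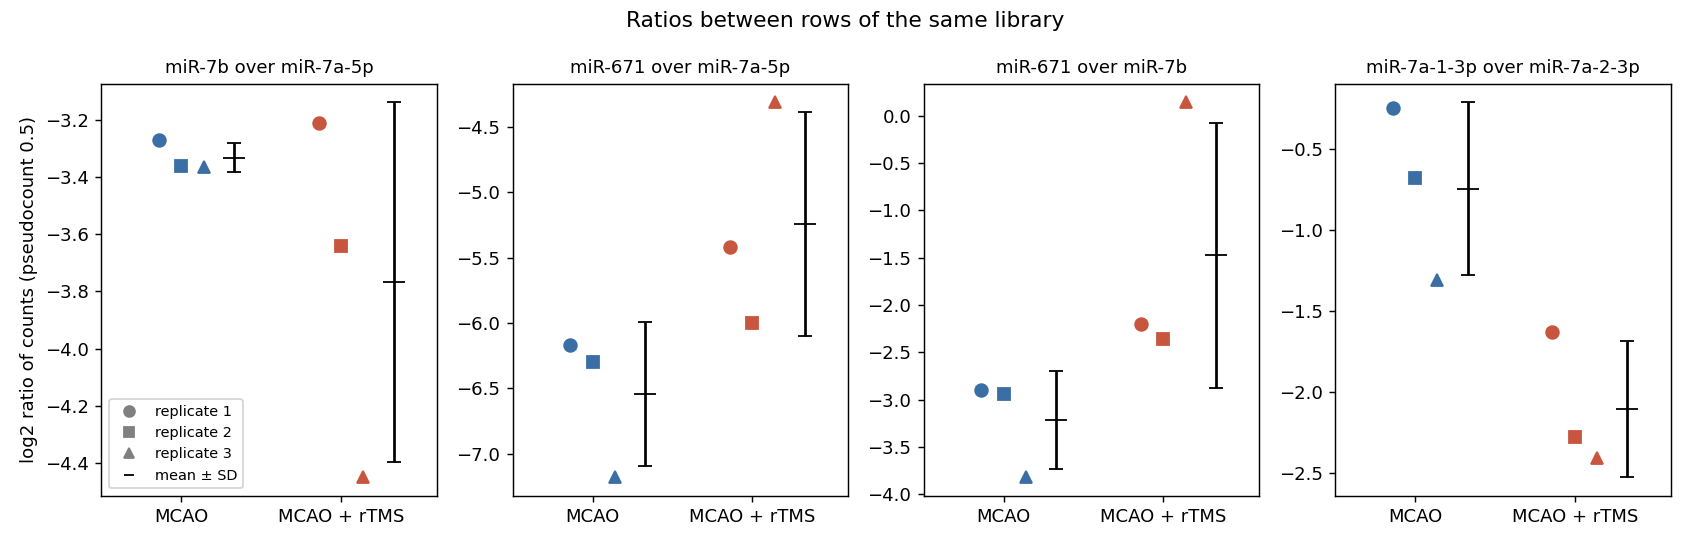
Log2 ratio of the counts of 2 members in the same library, after adding 0.5 to each count, with single rats as points and mean ± SD (n = 3) in black. miR-7b over miR-7a-5p overlaps between the groups and is most spread in the MCAO + rTMS group, while the other 3 ratios do not overlap.

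The miRNAs with the most similar profile were found as the smallest root mean square difference of log2(CPM + 1), centred on each miRNA's mean, over the 6 libraries. For miR-7a-5p these were miR-222-3p (0.22), miR-3099 (0.23), and miR-351-5p (0.24), where the median over the other tested miRNAs was 0.80. For miR-7b they were miR-3099 (0.32), miR-214-3p (0.34), and miR-450b-3p (0.35), and the distance between miR-7b and miR-7a-5p was 0.42. For miR-671 they were miR-151-3p (0.13), miR-1224 (0.14), and miR-485-3p (0.19). The log2 fold changes of these 3 were 2.25, 2.31, and 2.41. That they are close to that of miR-671 follows from picking them by likeness over both groups. The closest to miR-7a-1-3p were miR-322-5p (0.11), miR-16-5p (0.13), and miR-582-5p (0.15), and the closest to miR-7a-2-3p were miR-181b-5p (0.091), miR-145-5p (0.12), and miR-667-3p (0.15).

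Other miRNAs for which a decay-triggering RNA is known, as Cyrano is for miR-7, were counted beside it. Of the 7 listed and tested, 1 was higher (miR-222-3p, log2 fold change 0.82, adjusted p = 0.026 in edgeR's test), 4 were lower (miR-29b-3p, miR-30b-5p, miR-221-3p, and miR-322-5p), and miR-30c-5p and miR-503-5p did not pass the threshold. Over all tested miRNAs 27.2% were called higher and 28.1% lower. The 7 had a median log2 fold change of -0.82, against -0.21 over all tested miRNAs, and whether they differ from the rest was not tested.

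The labelled tissue was checked against miRNAs known to mark neurons. miR-128-3p, miR-9a-5p, and miR-124-3p were all abundant, with means of 212037, 167616, and 5318 CPM in the MCAO group. The rest of the 12 listed were not all abundant there, with means from 2.04 CPM (miR-153-3p) to 15031 CPM (miR-129-5p). Of 12 neuronal miRNAs tested, 2 were higher (miR-128-3p and miR-129-5p) and 5 were lower (miR-124-5p, miR-9a-3p, miR-212-3p, miR-138-5p, and miR-137-3p). The other 5 were not called, where 55.3% of all tested miRNAs were called. The 12 had a median log2 fold change of -0.55, against -0.21 over all tested miRNAs. Their summed level was 343813 to 448620 CPM in the MCAO rats and 460861 to 676774 CPM in the MCAO + rTMS rats. In CPM this difference was carried mainly by miR-128-3p, with a mean of 341033 CPM in the MCAO + rTMS group, while miR-9a-5p had one of 150020 CPM. The direction of the difference in the sum depends on the TMM factors, which were above 1 in every MCAO library and below 1 in every MCAO + rTMS library. Whether neuronal miRNAs as a whole were higher with rTMS was not tested. miR-375-3p, which like miR-7 is abundant in hormone-secreting cells, was near the lower limit of the table, at 1.72 to 2.31 CPM in the MCAO rats and 3.37 to 4.74 CPM in the MCAO + rTMS rats (log2 fold change 1.09, adjusted p = 0.023 in edgeR's test).

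Marker miRNAs of other cell types were counted against the same background of 55.3% called. Of 5 miRNAs of microglia and leukocytes, 4 were lower and 1 was not called, with a summed level of 695 to 718 CPM in the MCAO rats and 312 to 549 CPM in the MCAO + rTMS rats. Of 2 oligodendrocyte miRNAs tested of 3 listed, miR-219a-2-3p was higher, with a log2 fold change of 1.22. The other, miR-338-3p, went the other way and was not called (log2 fold change -0.73, adjusted p = 0.060 in edgeR's test). Every MCAO + rTMS rat lay below every MCAO rat for miR-338-3p. The third, miR-219a-5p, was listed at 0 in all MCAO + rTMS libraries and in 1 MCAO library. Of 2 red blood cell miRNAs tested of 3 listed, miR-486 was higher, with means of 170 CPM without and 561 CPM with rTMS, and miR-451-5p was lower, with means of 31.5 and 10.3 CPM. Their sum, 141 to 302 CPM without and 513 to 637 CPM with rTMS, thus follows miR-486. Of 2 endothelial miRNAs, 1 was lower and 1 not called (2993 to 6298 CPM against 2017 to 3293 CPM), and of 4 muscle miRNAs, 2 were higher and 2 lower. The muscle sum, 82.1 to 143 CPM against 240 to 394 CPM, was mostly miR-206-3p, with means of 50.9 and 254 CPM. The part of these values in the changes of miR-7 and miR-671 was not tested.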

How the data were processed

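A small RNA library per rat, 3 in each group, was made from the peri-infarct cortex and read on an Illumina HiSeq machine. The authors deposited raw read counts per mature miRNA for 493 miRNAs, and a smaller table of 73 with the same counts, neither of them normalized. The submitters' processing notes name bcl2fastq, BWA, DESeq2, and the rn6 build, without versions. The miRNA database and how reads matching several miRNAs were counted are not given in the sources used here. No count from 1 to 9 occurs, so a listed 0 may be up to 9 reads, and no member was listed at 0. Counts carry no molecular identifiers, and ligation during library preparation favours some sequences, so levels of different miRNAs compare only roughly. The edgeR and limma p-values set each group difference against the spread between these rats, estimated with information from all tested rows.

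The analysis used edgeR 4.0.16 (R 4.3.3) with filterByExpr, TMM factors, and the quasi-likelihood test without a block, and the fit was tested on simulated data. The standard error is the log2 fold change divided by the square root of F. Arm ratios are log2 of 3p over 5p counts after adding 0.5 to each, tested with limma 3.58.1 over 167 pairs of tested rows. In the study's methods groups were compared with a two-sample test on each miRNA, and the count model replaced it. Alternatives were 4 other scalings, DESeq2 1.42.0, limma-voom, 2 other filters, zeros set to 9, pseudocounts of 1 and 5, a block for the replicate number, and leaving out 1 library at a time. Named miRNAs are the members, the marker and decay lists, and the 3 nearest profiles of each member. The members and lists were chosen with earlier results of these data known. Sequences are from RefSeq (GRCr8), in which 451 of the 493 names matched, and no coordinates are printed since the counts rest on another build. Figures were drawn with matplotlib 3.10.9.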

Additional observations from a re-analysis of the deposited data

How the results depend on the processing

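miR-671 stayed higher and miR-7a-1-3p lower, both past the threshold, in each alternative that gave a value, 16 for the former and 15 for the latter, which a mean count above 200 removed, together with its arm ratio. The call of miR-7a-5p (log2 fold change 0.93) was lost, with the direction kept, with RLE factors (0.97, adjusted p = 0.050), upper-quartile factors (0.62), library totals only (0.29), no filter (0.93), and the replicate block (0.93, adjusted p = 0.071), and in 3 of the 6 edgeR fits that left out 1 library (MCAO replicate 1 or 2, or MCAO + rTMS replicate 2), which ranged from 0.63 to 1.26. The cause was not tested. miR-7b turned to -0.021 with library totals only, and ranged from 0.25 to 0.92 with 1 library left out. The arm ratio of miR-7a-2-3p ranged from -1.39 to -1.04 with 1 library left out, and that of miR-7a-1-3p from -2.99 to -2.17. The number of members called was between 2 and 4. The number of all miRNAs called, 250, was between 179 and 263. The number of arm pairs called, 82, was from 67 to 91 with 1 library left out. It was 46 where both rows had a mean count above 200, a filter that leaves fewer pairs to test. Whether the share of pairs called also differed was not tested. With library totals only, 20.9% of the calls were higher, and with upper-quartile factors 33.1%, against 49.2% with TMM factors.

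Replicate numbers in the titles do not mark shared animals. The deviations of same-numbered rats from their group means correlated at 0.20, -0.12, and -0.11, and those of differently numbered rats at -0.28 to 0.30. Deviations of 3 rats from their own mean are tied to each other. These values therefore cannot show whether same-numbered rats shared a step of processing. The replicate block lowered the number of all miRNAs called from 250 to 180 and, among the members, changed no call other than that of miR-7a-5p. The 3p arms rest on the fewest reads of the members, 28 to 441 a library, but their standard errors were not the largest. These were 0.34 for miR-7a-1-3p and 0.24 for miR-7a-2-3p, against 0.41 for miR-7b.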
